A study of Mus musculus with 4 samples.

Results

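The genes described here are the 180 genes that were lower in cocultured RAW264.7 macrophages than in mock macrophages in both replicate pairs. RAW264.7 is a mouse macrophage cell line, and CT26 is a mouse colon carcinoma cell line. A gene was taken when its symbol occurred once in each deposited table, its mean over the 4 libraries was at least 2 FPKM (a level: sequenced fragments per kilobase of a gene, relative to the library total), and its log2(FPKM + 1) in coculture minus that in mock was at or below -0.585 in each pair, which is a 1.5-fold lower value on that scale. The bounds were met by 201 genes, of which 21 were left out by name. These were predicted, clone-based and small RNA names, solute carriers, some further gene families, and Usp2, Gpr183, Lpar5, Htr1b, Tfeb, Mylip, Cpt1a, Lipa, Mki67 and Cenpf. Of the 21, 8 belonged to a role list used below, so the counts of the members in those lists are set in part by the names left out. The 180 are part of 9525 genes whose mean reached 2 FPKM and of 22554 genes found in both tables. The genes were selected on the coculture minus mock differences themselves, so those values are given as a description with no test.

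The groups are 2 libraries of RAW264.7 cells cocultured with CT26 cells, called coculture 1 and 2, and 2 libraries of mock RAW264.7 cells, called mock 1 and 2. Library 1 of each group stands in the first deposited table (pair 1) and library 2 in the second (pair 2). Per the labels, RAW264.7 cells were kept in DMEM and CT26 cells in RPMI1640, and RAW264.7 is the only source named for all 4 libraries. The length of the coculture, its medium, the way the CT26 cells were removed, and whether the replicates are separate cultures are not stated in the labels. Any p-value here therefore rests on the spread of 4 libraries, and that spread may be purely technical. RAW264.7 is a transformed line, so it stands for primary macrophages only in part.

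Macrophages sense their surroundings through Toll-like receptors, lectins, integrins and G protein-coupled receptors, and pass the signal on through small GTPases, lipid kinases and the actin cortex. Their identity rests on transcription factors such as PU.1, MEF2C and KLF4, and their lysosomes break down what they engulf. When Toll-like receptors or cytokines activate a macrophage, NF-kappaB turns on inflammatory genes, while the transcripts of other genes are known to decline. The lower genes are taken below in that order, from surface receptors to signalling, transcription, lysosomes, metabolism and cell division.

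The start regions of the 4 genes with the lowest mean difference among those with a single entry in the RefSeq promoter table (GRCm38.p6) are shown first, so that the letters upstream of genes that were lower together can be compared. Each runs 5′ to 3′ on the gene's own strand over 250 bases before and 50 bases after the start. Capitals mark a GC box (GGGCGG or its complement CCGCCC) or a CCAAT box (CCAAT or its complement ATTGG).
Rgs2, chr1:144004100-144004399, minus strand: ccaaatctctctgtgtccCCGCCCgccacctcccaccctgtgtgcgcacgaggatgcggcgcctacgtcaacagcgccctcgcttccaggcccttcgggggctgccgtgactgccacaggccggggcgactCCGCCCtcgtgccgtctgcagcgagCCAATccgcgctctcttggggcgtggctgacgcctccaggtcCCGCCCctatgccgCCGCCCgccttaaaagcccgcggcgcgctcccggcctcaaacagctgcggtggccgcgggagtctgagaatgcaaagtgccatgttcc
Myo1f, chr17:33555457-33555756, plus strand: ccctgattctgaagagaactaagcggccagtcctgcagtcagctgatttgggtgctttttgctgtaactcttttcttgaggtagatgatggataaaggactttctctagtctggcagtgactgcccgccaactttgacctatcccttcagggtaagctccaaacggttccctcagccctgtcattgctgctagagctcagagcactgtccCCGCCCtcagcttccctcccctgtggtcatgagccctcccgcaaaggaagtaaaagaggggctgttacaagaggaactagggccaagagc
Plekhm1, chr11:103412656-103412955, minus strand: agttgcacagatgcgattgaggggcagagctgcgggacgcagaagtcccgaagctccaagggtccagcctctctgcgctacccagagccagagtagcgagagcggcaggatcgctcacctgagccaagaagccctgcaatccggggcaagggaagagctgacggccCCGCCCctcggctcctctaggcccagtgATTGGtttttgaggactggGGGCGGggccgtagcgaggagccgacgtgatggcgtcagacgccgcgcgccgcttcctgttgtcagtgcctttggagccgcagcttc
Klhl6, chr16:19983000-19983299, minus strand: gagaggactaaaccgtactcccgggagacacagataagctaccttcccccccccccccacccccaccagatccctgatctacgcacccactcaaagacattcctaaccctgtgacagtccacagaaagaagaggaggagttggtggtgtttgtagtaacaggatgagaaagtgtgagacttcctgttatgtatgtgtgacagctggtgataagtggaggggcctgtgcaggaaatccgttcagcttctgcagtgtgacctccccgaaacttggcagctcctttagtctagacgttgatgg
The Rgs2 window held 4 GC boxes and 1 CCAAT box and was 70.0% G and C. The Plekhm1 window held 2 GC boxes and 1 CCAAT box at 65.0% G and C. In Myo1f there was 1 GC box at 53.0% G and C, and in Klhl6 there was neither box at 52.7%. Of all 32544 promoters in the table, searched on both strands, 35.9% held a GC box and 37.4% a CCAAT box, so neither is unusual, and a match of letters is not a site. Only 138 of the 180 genes (76.7%) had an entry, which is under the 80% set for such a check, so no comparison of promoter content over the whole group was made.

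Across the 180 genes, the median difference (coculture minus mock, log2(FPKM + 1)) was -0.88 for pair 1 and -0.82 for pair 2. The median of the means over pairs was -0.89, and the single genes ranged from -2.27 to -0.61. The median over all 9525 genes was -0.09 in pair 1 and -0.06 in pair 2. As a share of mock FPKM, the median gene stood at 48.4% in coculture 1 and 53.4% in coculture 2. The bounds were met by 2.11% of the 9525 genes before names were left out, and 2.36% were at least 1.5-fold higher in both pairs. A further 52 genes passed 1.5-fold in opposite directions. These shares are set by the rule and nothing is read from them.

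At a stricter bound, 28 of the 180 genes were at least 2-fold lower in both pairs, against 0.357% of the 9525 genes before names were left out. Another 39 passed 2-fold in pair 1 alone, 28 in pair 2 alone and 85 in neither. The 2 differences lay within 0.25 of each other for 100 genes and more than 1 apart for 13. In 149 of the 180, both coculture libraries lay below both mock libraries, an arrangement found in 21.7% of the 9525 genes. In the other 31, a coculture library of one table overlapped a mock library of the other table. The rule takes genes that are lower in both pairs, so these shares too are largely set by it and nothing is read from them. The same holds for the lack of overlap given for single genes below. With a single library left out and group means compared across tables, the bound was still passed by 110 of the 180 without coculture 1, 117 without mock 2, 172 without coculture 2 and 171 without mock 1.

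**Figure D1:**
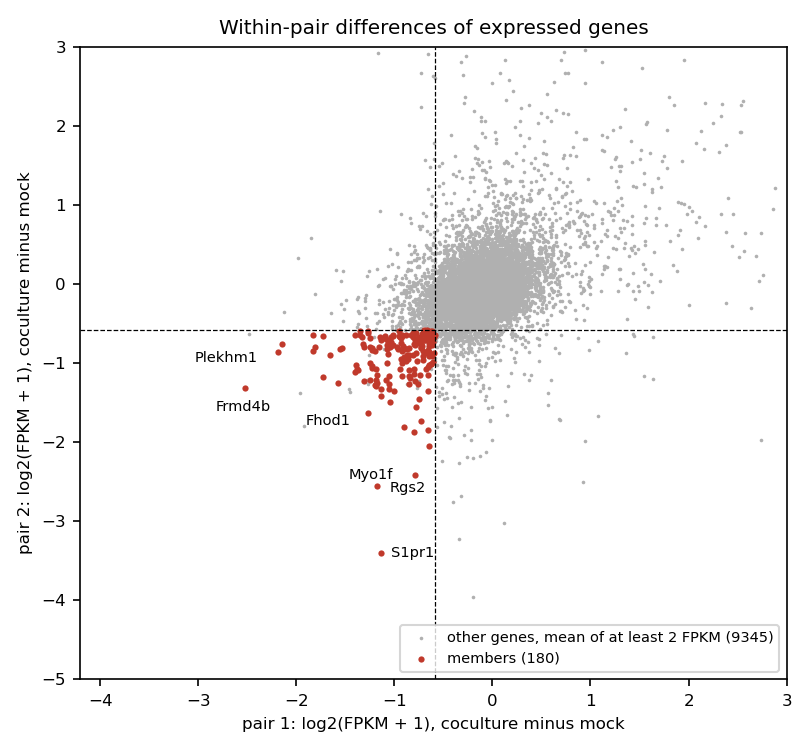
Differences in log2(FPKM + 1), coculture minus mock, of 9525 genes in pair 1 (x axis) and pair 2 (y axis), with the 180 chosen genes in red, the other 9345 in grey and dashed lines at -0.585. The red points fill the lower left corner, where the few grey points are the names left out, and S1pr1, Rgs2 and Myo1f lie farther down in pair 2 while Frmd4b and Plekhm1 lie farther left in pair 1; 54 genes lie outside the axes.

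The estimated depth was 12200000 to 16200000 reads for a library. In limma with the pair as a block, 13 of 10202 genes (0.127%) were higher in coculture at a Benjamini-Hochberg adjusted p under 0.05 and 0 (0%) were lower, and an unadjusted p under 0.05 was reached by 537 genes in the higher and 964 in the lower direction. All 180 chosen genes passed the filter of that test, and none was called. That a gene of a list below was not called therefore does not show that it was unchanged. The 10 macrophage markers (among them Adgre1, Csf1r and Lyz2) were all above 1 FPKM in every library, and none of them was among the 180. Lyz2 alone made up most of their sum, at 6585 and 10287 FPKM in the coculture libraries and 7088 and 3529 FPKM in the mock libraries. The other 9 summed to 2317 and 2279 FPKM in coculture and 2594 and 3119 FPKM in mock, and 6 of the 10 (Csf1r, Cd68, Ptprc, Tyrobp, Mpeg1 and Laptm5) were lower in coculture in both pairs. The part of a general shift of macrophage transcripts in the values below was not tested. Of 8 epithelial markers that carcinoma cells could bring, 0 reached 1 FPKM, with a highest value of 0.0683 FPKM, and Epcam, Krt18 and Cldn4 were at 0 in every library. The number at 0 was 4 and 7 in the coculture libraries and 4 and 8 in the mock libraries. Of 8 mesenchymal markers, Tagln stood at 1.59 and 1.34 FPKM in the coculture libraries and 1.93 and 1.64 FPKM in the mock libraries, and the others did not pass 0.282 FPKM, with 5 and 6 at 0 in coculture and 2 and 6 at 0 in mock. In bulk RNA, fewer cells of a kind and less RNA per cell cannot be told apart, and this holds for every gene below.

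The 16 lowest genes span receptors, actin regulators, enzymes and adaptors. S1pr1, a receptor for sphingosine-1-phosphate that steers immune cell traffic, stood at 0.0814 and 0.675 FPKM in coculture 1 and 2, against 1.38 and 16.7 FPKM in mock 1 and 2. Both coculture libraries lay below both mock libraries, and mock 2 was far above mock 1. Its mean difference was -2.27 ± 1.60 (SD, n = 2 pairs). As a share of mock FPKM it stood at 5.91% in coculture 1 and 4.05% in coculture 2. The pairs thus lay closer in FPKM ratio than in log2(FPKM + 1), a scale that understates the change of low values such as mock 1. It held an estimated 64 reads in mock 1 and 797 in mock 2, against 4 in coculture 1 and 25 in coculture 2. Frmd4b, a FERM domain protein gene of the cell cortex, stood at 2.03 and 11.3 FPKM in the coculture libraries, against 16.4 and 29.6 FPKM in the mock libraries, a difference of -1.92 ± 0.86. The groups did not overlap, and coculture 1 was the lowest library.

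Rgs2, which speeds GTP hydrolysis by G alpha q and so ends receptor signals, had 4.98 and 3.72 FPKM in coculture 1 and 2 and 12.5 and 26.8 FPKM in mock 1 and 2 (difference -1.87 ± 0.98). Myo1f, a class I myosin of myeloid cells, had 9.45 and 7.81 FPKM in coculture and 17.1 and 46.1 FPKM in mock (difference -1.60 ± 1.15). For both genes the coculture libraries lay close together and below mock, and mock 2 was the highest library. Plekhm1, an adaptor that joins Rab7 and the fusion machinery of lysosomes, went the other way in its spread, with 6.84 and 14.4 FPKM in coculture and 34.7 and 26.9 FPKM in mock (difference -1.52 ± 0.94). Here mock 1 was highest and the larger difference lay in pair 1.

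Klhl6, a Cullin-3 substrate adaptor known from B cells, stood at 5.07 and 14.5 FPKM in coculture and 19.1 and 34.1 FPKM in mock (difference -1.45 ± 0.39). St8sia4, an enzyme that adds polysialic acid to glycoproteins, had 6.72 and 28.7 FPKM in coculture and 33.1 and 49.2 FPKM in mock (difference -1.45 ± 0.98). Fhod1, a formin that binds and bundles actin filaments, had 4.84 and 4.89 FPKM in coculture and 13.1 and 17.2 FPKM in mock (difference -1.45 ± 0.26). In these 3 genes the groups did not overlap, and Fhod1 had nearly the same level in both coculture libraries. Calhm2, of a family of large-pore channels, had 3.34 and 6.26 FPKM in coculture and 11.9 and 16.2 FPKM in mock. Hpgds, the haematopoietic synthase of prostaglandin D2, had 3.68 and 5.73 FPKM in coculture and 7.76 and 22.7 FPKM in mock. Neither overlapped between groups, and the differences were -1.41 ± 0.23 for Calhm2 and -1.36 ± 0.64 for Hpgds.

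Rnase4, a secreted ribonuclease gene that shares its promoters and first exons with Ang, stood at 10.3 and 10.8 FPKM in coculture and 16.6 and 48.1 FPKM in mock (difference -1.35 ± 0.997), so reads of the 2 genes may be split between them. Dgkg, a diacylglycerol kinase, was low throughout, with 1.04 and 0.743 FPKM in coculture and 2.54 and 5.402 FPKM in mock (difference -1.34 ± 0.76). Tlr13, the mouse endosomal receptor for bacterial ribosomal RNA, had 3.02 and 13.3 FPKM in coculture and 13.3 and 24.7 FPKM in mock (difference -1.33 ± 0.69). Its coculture 2 value was level with its mock 1 value, so the groups overlapped across the tables. The same was true of Arl11, an Arf-like GTPase of macrophages, at 1.25 and 7.83 FPKM in coculture and 6.899 and 14.4 FPKM in mock (difference -1.31 ± 0.72). Mtss1, a membrane-bending protein that binds actin, had 5.05 and 14.01 FPKM in coculture and 18.1 and 27.1 FPKM in mock, and Rassf3, a Ras-association protein, had 7.56 and 9.26 FPKM in coculture and 17.8 and 26.3 FPKM in mock. Neither overlapped between groups, and the differences were -1.28 ± 0.53 for Mtss1 and -1.28 ± 0.19 for Rassf3.

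**Figure D2:**
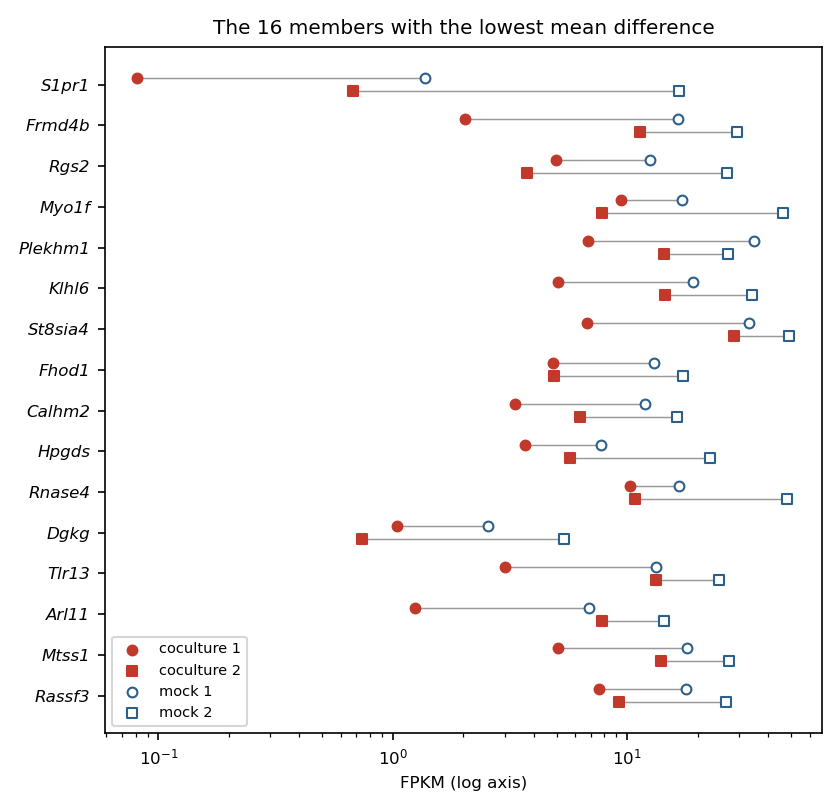
Levels of the 16 genes with the lowest mean difference, in FPKM on a log axis, with coculture in red, mock in open blue, circles for pair 1, squares for pair 2 and a line joining the libraries of a pair. In all 16 genes each red point lies left of its blue partner; S1pr1 runs lowest, at 0.0814 and 0.675 FPKM in coculture, and Tlr13 and Arl11 are the genes in which coculture 2 reaches mock 1.

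Of the immune surface receptor and adhesion genes whose mean reached 2 FPKM, 8 of 155 were in the group (5.16%, against 1.89% of all 9525 genes), while the list's own median difference was -0.05. None of the other 147 was called lower, and Clec4e was called higher. Of the 155, 15 were at least 1.5-fold higher in both pairs, against 2.36% of all 9525 genes. Sirpa, the inhibitory receptor that reads CD47 on neighbouring cells, stood at 39.7 and 67.4 FPKM in coculture and 94.1 and 142 FPKM in mock (difference -1.14 ± 0.11). Itga4, the alpha 4 chain of the integrin VLA-4, had the highest mean level of the 180 genes, with 91.8 and 156 FPKM in coculture and 189 and 259 FPKM in mock (difference -0.88 ± 0.21). Il6ra, the ligand-binding chain of the interleukin-6 receptor, was nearly the same in both pairs, with 23.2 and 23.3 FPKM in coculture and 43.01 and 45.8 FPKM in mock (difference -0.90 ± 0.058). None of these 3 overlapped between the groups.

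Beside Tlr13, the receptors of the innate sensing group were Cd180 and Tlr7. Cd180, a Toll-like receptor relative that restrains TLR4 signals in myeloid cells, had 27.5 and 41.7 FPKM in coculture and 59.2 and 74.3 FPKM in mock, and Tlr7, the endosomal sensor of single-stranded RNA, had 25.3 and 26.3 FPKM in coculture and 49.4 and 44.9 FPKM in mock. Ticam2, the TRAM adaptor of TLR4, stood at 4.15 and 9.79 FPKM in coculture and 6.92 and 16.2 FPKM in mock, and Tifa, an adaptor that activates TRAF6, at 0.836 and 6.57 FPKM in coculture and 3.78 and 14.99 FPKM in mock. In Ticam2 and Tifa, coculture 2 lay above mock 1, so these overlapped across tables, while Cd180 and Tlr7 did not. Tgfbr1, the type I TGF-beta receptor kinase, had 5.07 and 6.12 FPKM in coculture and 9.103 and 14.8 FPKM in mock. Cd300e, an activating receptor of monocytes, had 2.78 and 3.02 FPKM in coculture and 5.51 and 6.37 FPKM in mock. The negative regulator of reactive oxygen species Nrros stood at 24.3 and 30.4 FPKM in coculture and 39.1 and 47.1 FPKM in mock, a difference of -0.64 ± 0.036. The ITAM-bearing gene Nfam1 stood at 32.8 and 21.1 FPKM in coculture and 55.1 and 37.9 FPKM in mock, a difference of -0.77 ± 0.056, again with no overlap between the groups.

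G protein-coupled receptor and G protein signalling genes gave 7 of 95 (7.37%), with a list median of -0.12, and none of the other 88 was called. Gpr183, Htr1b and Lpar5 also met the bounds and were left out by name, so 10 of the 95 (10.5%) did so in all. Another 8 of the 95 were at least 1.5-fold higher in both pairs. After each library was centred on its median, 4 of the 7 met the bounds. Beside S1pr1 and Rgs2, these were Gpr155, Rgs14, Cysltr1, S1pr2 and Ptger1. S1pr2, a second sphingosine-1-phosphate receptor, which acts against cell migration, had 5.58 and 8.63 FPKM in coculture and 9.300 and 17.1 FPKM in mock. Cysltr1, a receptor for cysteinyl leukotrienes, had 2.103 and 6.696 FPKM in coculture and 3.902 and 18.6 FPKM in mock. Its coculture 2 value lay above its mock 1 value, while S1pr2 did not overlap. Gpr155, a lysosomal membrane protein that senses cholesterol, was at 0.971 and 1.45 FPKM in coculture and 2.78 and 4.15 FPKM in mock. Rgs14, a regulator of the Gi class, was at 5.28 and 6.26 FPKM in coculture and 11.97 and 11.7 FPKM in mock. Neither of these overlapped between the groups.

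The highest share of any role list was in the list named for regulators of Ras, Rap and Arf GTPases, with 7 of 56 (12.5%) and a list median of -0.16. None of the other 49 was called, and 3 of the 56 were at least 1.5-fold higher in both pairs. Rasgrp3, an exchange factor for Ras and Rap that diacylglycerol recruits, stood at 26.5 and 54.8 FPKM in coculture and 67.3 and 95.9 FPKM in mock (difference -1.05 ± 0.36). Rasa3, a GTPase-activating protein for Ras and Rap1, had 10.5 and 29.05 FPKM in coculture and 25.2 and 52.8 FPKM in mock (difference -1.02 ± 0.25). Exchange factors and activating proteins, which act on these GTPases in opposite ways, were thus both among the lower genes. The list is a pattern of symbols and also takes in Ras-association genes, so its share does not speak for regulators alone. Of these genes, Rassf2 and Rassf5 joined Rassf3. Rassf2 had 6.401 and 13.2 FPKM in coculture and 15.5 and 23.6 FPKM in mock, and Rassf5, a Rap1 effector in integrin adhesion, had 5.900 and 12.3 FPKM in coculture and 10.7 and 21.3 FPKM in mock. The Arf regulators were Acap3, at 6.24 and 6.67 FPKM in coculture and 11.2 and 11.3 FPKM in mock, and Iqsec2, at 1.19 and 3.68 FPKM in coculture and 2.37 and 6.59 FPKM in mock. Rassf5 and Iqsec2 overlapped across tables, coculture 2 lying above mock 1, and Rasa3 did too.

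**Figure D3:**
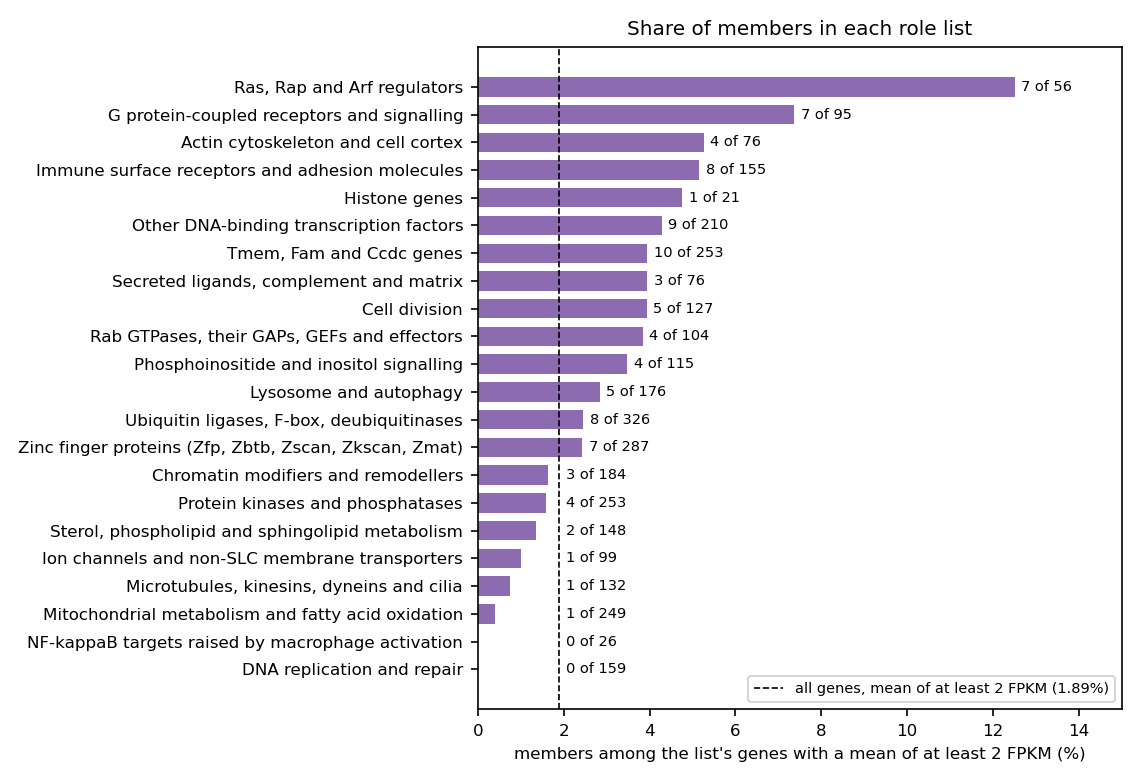
Share of each role list's genes at a mean of 2 FPKM or more that were among the 180 lower genes (bars, percent), with the number of genes beside each bar and a dashed line at the 1.89% found over all 9525 genes. Ras, Rap and Arf regulators stand at 12.5% and G protein-coupled receptors and signalling at 7.37%, while DNA replication and repair and NF-kappaB targets raised by macrophage activation stand at 0. The lists are patterns of symbols, and the bars do not show genes that were higher.

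Actin cytoskeleton genes gave 4 of 76 (5.26%; list median -0.10), and none of the other 72 was called. Frmd4b, Fhod1 and Myo1f are described above, and the other was Abi3, which associates with the WAVE complex and had 1.27 and 2.15 FPKM in coculture and 2.59 and 4.64 FPKM in mock. Abi3 shares 43.1% of its exon bases with Gngt2 and Phospho1, neither of which was lower in both pairs. Ahnak, a very large scaffold protein beneath the plasma membrane, had 88.5 and 112 FPKM in coculture and 159.9 and 239 FPKM in mock (difference -0.97 ± 0.17). It ranked behind Itga4 in mean level, and its groups did not overlap.

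Rab GTPases and their regulators gave 4 of 104 (3.85%; list median -0.11). Rab3il1, an exchange factor for Rab8 and Rab3A, stood at 15.2 and 8.56 FPKM in coculture and 36.3 and 22.1 FPKM in mock, and was past 2-fold in both pairs. Tbc1d16, a Rab GTPase-activating protein, had 8.95 and 12.9 FPKM in coculture and 16.9 and 24.97 FPKM in mock. Rab27a, which docks secretory lysosomes and exosome-bearing bodies, had 2.696 and 3.801 FPKM in coculture and 6.75 and 6.89 FPKM in mock, and Dennd2c was the other member. None of these 3 named with values overlapped between groups.

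Phosphoinositide and inositol signalling genes gave 4 of 115 (3.48%; list median -0.14), among them Plekhm1 and Dgkg. Plekhm1, described above as a lysosomal adaptor, was placed here by its symbol pattern and is not counted in the lysosome list. Pip4k2a, a kinase that uses up phosphatidylinositol 5-phosphate, had 26.7 and 36.9 FPKM in coculture and 44.1 and 67.4 FPKM in mock. Pik3r1, the p85 alpha regulatory subunit of PI3-kinase, had 4.33 and 8.25 FPKM in coculture and 9.73 and 13.6 FPKM in mock. Both had no overlap between groups, and none of the other 111 genes of the list was called. Protein kinases and phosphatases were near the share of all genes, with 4 of 253 (1.58%; list median -0.03), all 4 of them genes of phosphatases or of a phosphatase regulator. At least 1.5-fold higher in both pairs were 14 of the 253. Ptpra, a receptor tyrosine phosphatase that activates Src kinases, had 62.1 and 67.7 FPKM in coculture and 96.9 and 108 FPKM in mock (difference -0.65 ± 0.025). Ptpro, another receptor tyrosine phosphatase, had 1.17 and 6.26 FPKM in coculture and 4.07 and 11.7 FPKM in mock, with coculture 2 above mock 1, and Ppp1r26 and Ptpn18 completed the set.

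DNA-binding transcription factors gave 9 of 210 (4.29%; list median -0.11). Tfeb also met the bounds and was left out by name. Of the other 201, Nfkbiz was called higher and none lower. At least 1.5-fold higher in both pairs were 16 of the 210. Mef2c, a factor of myeloid and microglial identity, had 18.2 and 29.3 FPKM in coculture and 33.8 and 71.7 FPKM in mock (difference -1.06 ± 0.29). Fli1, an ETS factor of blood cells, had 4.79 and 16.2 FPKM in coculture and 15.7 and 29.1 FPKM in mock (difference -1.17 ± 0.51). Mef2c was separated between the groups, while Fli1 had coculture 2 just above mock 1. Klf4, a zinc finger factor of monocyte differentiation, had 4.78 and 14.96 FPKM in coculture and 8.09 and 32.1 FPKM in mock, with overlap across the tables. Bhlhe41, a repressor found in tissue macrophages, had 2.34 and 10.1 FPKM in coculture and 10.9 and 16.3 FPKM in mock, without overlap.

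The Id proteins bind basic helix-loop-helix factors and keep them off DNA, and 2 of their genes were in the group. Id3 had 25.2 and 10.9 FPKM in coculture and 54.1 and 22.8 FPKM in mock (difference -1.04 ± 0.055), and Id2 had 12.3 and 12.8 FPKM in coculture and 32.9 and 20.6 FPKM in mock (difference -0.997 ± 0.50). Id3 was lower by a like amount in both pairs although its level in the second table was under that in the first, so that coculture 1 lay above mock 2, and Id2 did not overlap. Smad6, an inhibitory SMAD that like the Id genes is a known target of BMP signals, had 0.684 and 1.13 FPKM in coculture and 4.56 and 2.35 FPKM in mock. Lyl1, a basic helix-loop-helix factor of blood cells outside the list, had 13.9 and 53.9 FPKM in coculture and 34.3 and 94.7 FPKM in mock, with overlap across the tables. Tfap4, of the same fold, had 9.595 and 11.4 FPKM in coculture and 21.4 and 19.1 FPKM in mock. Tsc22d3, the glucocorticoid-induced leucine zipper gene, had 1.09 and 3.45 FPKM in coculture and 4.26 and 6.05 FPKM in mock (difference -0.999 ± 0.47), and neither it nor Tfap4 overlapped between groups.

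**Figure D4:**
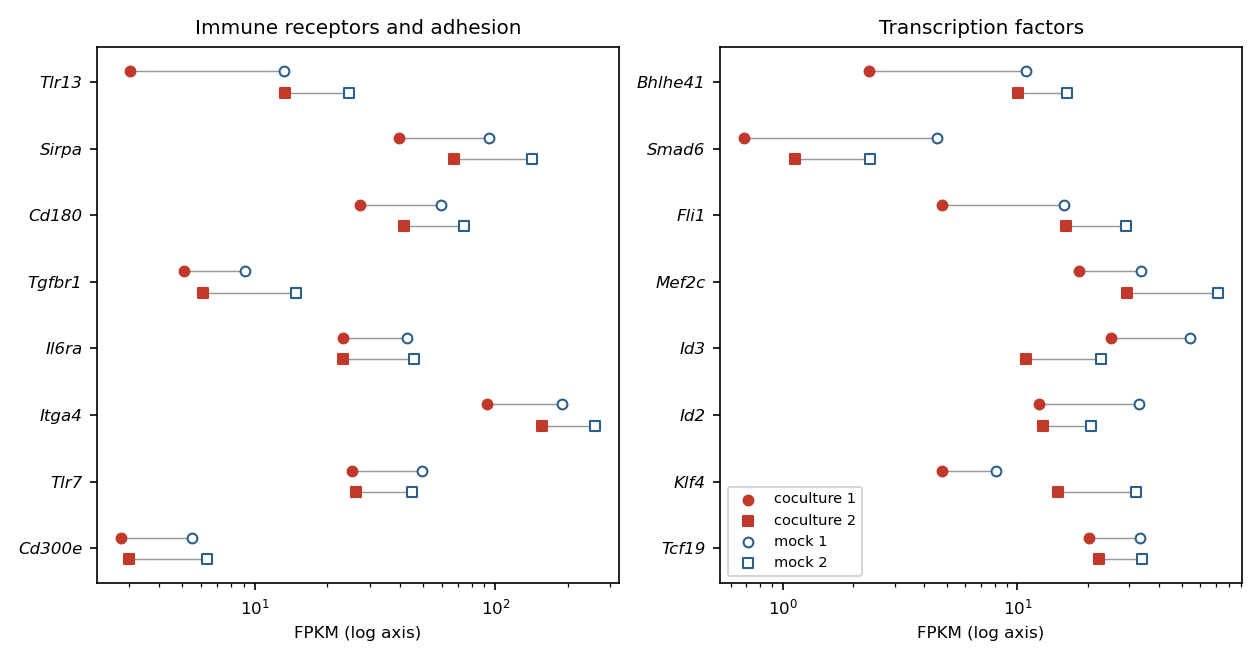
FPKM on a log axis of the 8 immune receptor and adhesion genes (left) and 8 of the 9 transcription factor genes (right) of the group, with coculture in red, mock in open blue, circles for pair 1, squares for pair 2 and a line joining each pair. Each coculture point lies left of its mock partner; Sirpa and Itga4 are the most abundant receptors, and among the factors Bhlhe41 and Smad6 have the longer line in pair 1.

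The list of chromatin modifiers gave 3 of 184 (1.63%; list median -0.19), no more than the share of all genes. That list is a pattern of symbols and does not hold the chromatin genes Bcl7a and Pwwp2b, which were members. The share therefore speaks only for the list. Hdac9, a class IIa histone deacetylase that binds MEF2 factors, had 1.16 and 2.66 FPKM in coculture and 3.88 and 7.12 FPKM in mock. Cbx8, a Polycomb chromodomain protein, had 2.83 and 3.87 FPKM in coculture and 8.88 and 9.38 FPKM in mock. Both were past 2-fold in each pair and without overlap, with differences of -1.17 ± 0.02 and -1.23 ± 0.20. Ncoa3, a nuclear receptor coactivator, had 10.7 and 24.9 FPKM in coculture and 26.8 and 40.5 FPKM in mock. Of 21 histone and HMG genes, the 1 member was H2az1 (4.76%; list median -0.18), which encodes the variant H2A.Z and had 6.95 and 25.8 FPKM in coculture and 14.2 and 42.1 FPKM in mock. Its level was so much higher in the second table that the groups overlapped and that, without coculture 1 and unblocked, its difference was 0.071, and reads of related copies may be shared with it. Zinc finger genes gave 7 of 287 (2.44%; list median -0.14), or 3 at a mean of at least 5 FPKM. Zfp362 had 2.54 and 5.73 FPKM in coculture and 7.41 and 12.5 FPKM in mock, the lowest of these 7 in mean difference at -1.12 ± 0.17. Zfp971 and Zfp61 differed by -0.74 ± 0.014 and -0.70 ± 0.015. Zfp36l2, which marks AU-rich transcripts for decay, had 47.4 and 44.5 FPKM in coculture and 74.5 and 75.3 FPKM in mock.

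Ubiquitin ligase, F-box and deubiquitinase genes gave 8 of 326 (2.45%; list median -0.08), or 5 at a mean of at least 5 FPKM. Usp2 met the bounds too and was left out by name, and of the other 318, Socs3 was called higher. The pattern of symbols does not hold Mylip, which also met the bounds and was left out by name. Klhl6 was the lowest, and Otulinl, an OTULIN relative without known protease activity, had 9.44 and 18.2 FPKM in coculture and 29.7 and 33.05 FPKM in mock. Neurl1b, a ligase that acts on Notch ligands, had 1.03 and 2.01 FPKM in coculture and 3.22 and 6.25 FPKM in mock, and Rnf166 had 6.36 and 11.3 FPKM in coculture and 12.7 and 22.4 FPKM in mock. None of these 3 overlapped. Trim65, Klhl17, Fbxo31 and Kbtbd11 completed the 8.

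Lysosome and autophagy genes gave 5 of 176 (2.84%; list median -0.10), or 3 at a mean of at least 5 FPKM. Tpcn1, a cation channel of endosomes and lysosomes, had 23.2 and 26.4 FPKM in coculture and 39.96 and 64.7 FPKM in mock (difference -1.01 ± 0.35). Rubcnl, a partner of the autophagosome fusion machinery, had 0.372 and 3.57 FPKM in coculture and 1.84 and 10.5 FPKM in mock, and was past 2-fold in both pairs. Smpdl3a, a secreted phosphodiesterase related to acid sphingomyelinase, had 3.34 and 3.19 FPKM in coculture and 6.29 and 10.6 FPKM in mock. Tpcn1 and Smpdl3a were separated between groups, and Rubcnl had coculture 2 above mock 1. Vps13c, a lipid transfer protein of endolysosomes, had 18.9 and 34.7 FPKM in coculture and 37.6 and 52.8 FPKM in mock, and Hyal1, a hyaluronidase, had 1.07 and 4.499 FPKM in coculture and 2.69 and 7.57 FPKM in mock. Outside the list, Gnptab, which tags hydrolases with mannose 6-phosphate, had 37.6 and 30.1 FPKM in coculture and 63.4 and 51.3 FPKM in mock, and Dram1, a lysosomal membrane protein, had 26.98 and 25.98 FPKM in coculture and 42.9 and 48.6 FPKM in mock. Gnptab and Dram1 are neighbours on chromosome 10 in the order of RefSeq genes. The groups did not overlap for Vps13c, Gnptab or Dram1, while Hyal1 had coculture 2 above mock 1. Cst7, an inhibitor of lysosomal cathepsins, had 2.44 and 3.15 FPKM in coculture and 4.43 and 5.66 FPKM in mock.

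Sterol, phospholipid and sphingolipid genes gave 2 of 148 (1.35%; list median -0.09), or 3 (2.03%) with Lipa, which met the bounds and was left out by name, so the share was near that of all genes. The 2 were St8sia4, placed there by its symbol pattern, and Daglb. Daglb, which makes an endocannabinoid from diacylglycerol, had 9.75 and 10.8 FPKM in coculture and 15.6 and 22.8 FPKM in mock, and shares 49.7% of its exon bases with Rac1, which differed by -0.04 in pair 1 and -0.54 in pair 2. Outside the lists, Cerk, the ceramide kinase, had 6.09 and 10.3 FPKM in coculture and 11.3 and 22.7 FPKM in mock, and Kdsr, an early enzyme of ceramide synthesis, had 2.09 and 2.39 FPKM in coculture and 4.14 and 4.38 FPKM in mock. With S1pr1 and S1pr2, these 4 genes act on sphingolipids or their signals, a grouping made after the values were seen. Mitochondrial metabolism and fatty acid oxidation gave 1 of 249 (0.402%; list median -0.03), or 2 (0.803%) with Cpt1a, also left out by name. The 1 member was the peroxisomal oxidase Acox3, at 3.801 and 5.702 FPKM in coculture and 6.305 and 12.3 FPKM in mock. Gclc, the catalytic subunit of the rate-limiting enzyme of glutathione synthesis, had 51.8 and 26.7 FPKM in coculture and 95.4 and 50.9 FPKM in mock (difference -0.89 ± 0.024). It was lower by a like amount in both pairs, with coculture 1 level with mock 2 across the tables.

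Secreted ligand, complement and matrix genes gave 3 of 76 (3.95%), while the list's median was 0.19 and Ccl3, Cxcl2 and Il1b were called higher. At least 1.5-fold higher in both pairs were 16 of the 76. The 3 were Angptl2, an angiopoietin-like factor, at 49.4 and 20.1 FPKM in coculture and 86.7 and 34.6 FPKM in mock, Angpt2, a ligand of the Tie2 receptor, at 3.06 and 4.18 FPKM in coculture and 6.87 and 7.18 FPKM in mock, and the protease Adamts10. Angptl2 had coculture 1 above mock 2, and Angpt2 did not overlap. Kitl, the ligand of the KIT receptor, had 2.02 and 1.41 FPKM in coculture and 4.58 and 3.61 FPKM in mock. The ion channel list gave Calhm2 as 1 of 99 (1.01%; list median -0.11). The Tmem, Fam and Ccdc names, which share no role, gave 10 of 253 (3.95%; list median -0.07), of which Tmem51 was lowest at 0.756 and 5.41 FPKM in coculture and 3.16 and 13.9 FPKM in mock. Tmem104 and Fam117b differed by -0.95 ± 0.013 and -0.85 ± 0.07, and Tmem171 of that list was called higher.

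Cell division genes gave 5 of 127 (3.94%; list median -0.27), or 3 after each library was centred on its median, and 6 (4.72%) with Cenpf, which was left out by name. None of the other 122 was called. The list is a pattern of symbols and does not hold Mki67, which also met the bounds and was left out by name. Its share speaks only for the list. E2f2, an activating E2F factor, had 6.71 and 10.8 FPKM in coculture and 18.3 and 19.1 FPKM in mock (difference -1.04 ± 0.40), and E2f8, a repressing one, had 18.05 and 20.1 FPKM in coculture and 31.3 and 34.1 FPKM in mock (difference -0.75 ± 0.018). Cdkn2c, an inhibitor of CDK4 and CDK6, had 15.5 and 14.4 FPKM in coculture and 24.8 and 30.2 FPKM in mock (difference -0.83 ± 0.27). An activator and a repressor of the same targets, and a brake on the cycle, were thus lower side by side, each without overlap. Aspm and Cdca2, of the spindle and of mitotic chromatin, differed by -0.70 ± 0.11 and -0.62 ± 0.027. DNA replication and repair gave 0 of 159 (list median -0.19). The microtubule list gave 1 of 132 (0.758%; list median -0.16), the centrosomal Cep78, at 8.95 and 14.1 FPKM in coculture and 19.9 and 24.6 FPKM in mock. Its pattern of symbols does not hold the members Klc4, Numa1 and Psrc1, whose products are kinesin or microtubule proteins. That share therefore speaks only for the list. The list of NF-kappaB targets raised by macrophage activation gave 0 of 26. Their median difference was 2.02, 21 of the 26 were at least 1.5-fold higher in both pairs, and 5 (Ccl3, Cxcl2, Ier3, Il1b and Nfkbiz) were called higher. That list was made of genes known to rise, with earlier results of these data known. Its values were therefore largely set by the choice, and nothing is read from them. In all, 94 of the 180 genes fell in a list and 86 in none.

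The 180 genes were moderately expressed. Their median level over the 4 libraries was 10.1 FPKM, against 16.5 FPKM for the 9525 genes, with 45 genes at 2 to 5 FPKM, 88 at 5 to 20, 39 at 20 to 50 and 8 above 50. No gene was at 0 in any library, although 15 were under 1 FPKM in some library. Read numbers estimated from the steps between low FPKM values and the gene lengths could be given for 179 genes, and 170 of these had at least 100 reads in both mock libraries. The fewest were 22, for AA465934 in mock 2. Together the 180 genes took 0.438% and 0.603% of the FPKM in the coculture libraries, against 0.909% and 1.20% in the mock libraries.

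The levels also differed between the tables. The median level was 5.02 and 7.82 FPKM in coculture 1 and 2, and 11.2 and 16.5 FPKM in mock 1 and 2. Of the 180 genes, 149 were higher in mock 2 than in mock 1 and 149 higher in coculture 2 than in coculture 1. The median of library 2 minus library 1, in log2(FPKM + 1), was 0.40 within coculture and 0.40 within mock, while over the 9525 genes it was 0.07 within coculture and 0.03 within mock. The tables may have been normalized separately. The difference between tables was larger in the 180 genes than over the 9525 genes, and neither its cause nor its part in the results was tested. The lower difference lay in pair 1 for 96 genes and in pair 2 for 84.

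**Figure D5:**
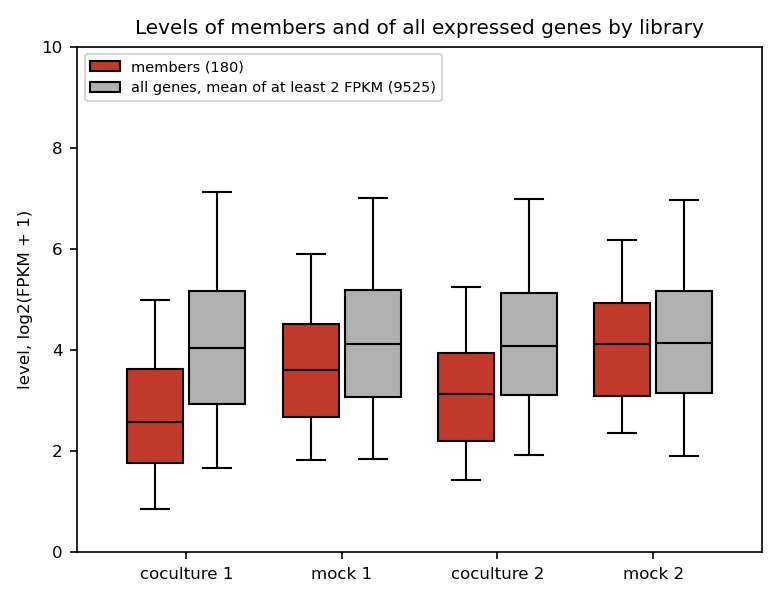
Levels in log2(FPKM + 1) of the 180 genes (red) and of all 9525 genes (grey) in each library, with coculture left of mock in each pair; the box spans the middle quartiles, the line is the median and the whiskers run over the central range from the 5th to the 95th percentile. The red boxes sit lower in coculture than in mock of the same pair and higher in pair 2 than in pair 1, while the grey boxes stay level; the median level is 5.02 and 7.82 FPKM in coculture and 11.2 and 16.5 FPKM in mock.

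At the threshold, the genes just inside were Apbb2, whose larger difference was -0.5851, and Numa1 at -0.5864. Just outside lay Anln at -0.5841 and Lpcat1 at -0.5829. Apbb2 had 3.13 and 4.61 FPKM in coculture and 5.55 and 7.41 FPKM in mock, and Anln, the actin-binding protein of the cleavage furrow, had 29.1 and 34.2 FPKM in coculture and 44.1 and 54.3 FPKM in mock. Membership near the bound thus turns on the third decimal of a difference.

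In gene structure, from GENCODE models matched by symbol for 179 of the 180, the genes were longer than others with a mean of at least 2 FPKM. Their median span from first to last exon was 36146 bases, against 22964 bases for the other genes, and their median 3′ untranslated region was 1397 bases, against 930 bases. The median coding length was 1463 bases, against 1359 bases, and the median number of exons was 8, against 9. These medians are given with no test. An ATTTA pentamer, the core of AU-rich decay elements, occurred in the 3′ untranslated region of 68.5% of the genes, against 65.5% of the others. Within regions of like length the order turned round above 500 bases, with 45.7% against 63.0% at 500 to 1000 bases, 81.6% against 84.3% at 1000 to 2000 bases and 91.04% against 96.6% above 2000 bases, while below 500 bases it was 36.8% against 29.98%. The site of the miR-155 seed (AGCATTA) occurred in 10.1%, against 8.08%, and that of the miR-146a seed (AGTTCTC) in 13.5%, against 11.03%. Within regions of like length neither site kept one direction, miR-155 standing at 21.1% against 8.51% at 1000 to 2000 bases and at 13.4% against 19.6% above 2000 bases, and miR-146a at 8.57% against 5.86% at 500 to 1000 bases and at 25.4% against 27.5% above 2000 bases. Longer regions hold any such word more often, and these words were chosen after the values were seen. In 8 of the 179 genes (4.47%, against 7.96% of the others), at least 20% of exon bases also belonged to another gene, and as the strand setting of the counting is not stated, reads of such pairs cannot be told apart. Of the 180 genes, 179 were protein-coding and 1 (AA465934) was a long noncoding RNA. Neighbours in the order of RefSeq genes formed 5 pairs within the group, which were Dram1 and Gnptab, Pik3r1 and Cd180, Adamts10 and Myo1f, H2az1 and Dnajb14, and Id3 and E2f2.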

How the data were processed

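Messenger RNA was profiled in 4 libraries, made with a Vazyme mRNA-seq kit for Illumina sequencing per the labels' protocols. The values are FPKM, deposited by the authors in 2 tables of 1 coculture and 1 mock library each. The tools listed in the submitters' processing notes are Trim Galore, Subread and featureCounts, and the build listed is hg38, which is human, while both tables hold mouse symbols. Their versions, the annotation, gene lengths and strand setting are not stated there. No gene coordinates of the authors' build are printed, and 0 columns of sample values were left unused.

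The members and the role lists were chosen with earlier results of these data known. The first table held 23427 rows, of which 23 unnamed and 287 with 106 repeated names were left out (at most 1.07% of a library's FPKM), and the second held 25239. FPKM were used as deposited, with a pseudocount of 1 for log2(FPKM + 1), a scale that understates the change of low genes. A value after ± is the SD of the within-pair differences, on 2 pairs. Depth and read numbers were estimated from the steps between low FPKM values and GENCODE M21 exon lengths, and a read number carries counting error only.

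A count model was not used on FPKM. The background of calls is limma 3.58.1 (R 4.3.3, trended variance, two-sided, pair as block) over the 10202 genes that reached 1 FPKM in 2 or more libraries. It was tried on simulated data beforehand, with planted changes larger than the mean difference of any of the 180 genes. That trial does not show whether falls of their size could be called. Libraries with the same number came from the same table, and their deviations from the group mean correlated at 0.76 across genes. Differences within tables were therefore used throughout. Sequence searches and figures used Python 3.11.15 with pandas 2.3.3, numpy 2.4.6 and matplotlib 3.10.9, and promoter sequences are RefSeq's.

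The genes named by rule were the 16 with the lowest mean difference, up to 3 per role list with the largest smaller fall, the 4 with the highest mean FPKM, the 4 whose differences lay farthest apart, and 2 on each side of the bound. Genes of a role list outside the group were named where limma called them. All other named genes were chosen after their values were seen. Some results are not reported here. Role lists are patterns of symbols, given with counts and medians and no test. The alternatives were other pseudocounts, filters, scalings and bounds, no trended variance, no replicate block, and leaving out each library.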

Additional observations from a re-analysis of the deposited data

How the results depend on the processing

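The number of genes meeting the rule was 180. It was 28 at a 2-fold bound. With no replicate block, when only the difference of group means had to pass, it was 420 (240 added, the 180 kept by construction). It lay within 1.5 times of 180, at 252 and 213 with pseudocounts of 0.1 and 0.5, at 232 after rescaling to a common total, at 137 after median centring (all of them among the 180), and at 190, 135 and 194 with a mean of at least 1, at least 5 or no minimum FPKM. Without a library, unblocked and so across the tables, 110 to 172 of the 180 passed the bound, with 110 without coculture 1 and 117 without mock 2, and 179 stayed below 0 in each case. The cause was not tested.

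The median difference of -0.89 was -1.02 and -0.95 with pseudocounts of 0.1 and 0.5, -0.94 after rescaling to a common total, -0.82 after median centring and -1.23 at the 2-fold bound. Without a library it ran from -1.12 (coculture 2 left out) to -0.68 (coculture 1), with -1.11 and -0.69 without mock 1 and mock 2. With no replicate block it is -0.89 by construction, since the difference of group means equals the mean of the pair differences. The median over all tested genes was -0.07, and -0.12 after rescaling. Of the 61 genes named by rule, 487 of 488 values under these settings kept their sign. That count was largely fixed in advance, as the genes were chosen at or near the bound in both pairs, and nothing is read from it. The value that changed sign was that of H2az1, at 0.071 without coculture 1. The sizes held less well. Without some library, unblocked, 34 of the 61 moved by over 1.5 times (15 to 23 for a given library), among them Angptl2, between -1.43 and -0.13, Rubcnl, between -2.20 and -0.18, Ptpro, between -1.89 and -0.15, and Fli1, between -1.96 and -0.39.

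The 13 genes that limma called higher became 22 with a pseudocount of 0.1, 25 with a filter of at least 5 FPKM, 25 after rescaling, 85 after median centring, 43 after quantile normalization, 1 without trended variance, 1 with no replicate block, 0 with no filter, and 0 with each library left out in turn. The cause was not tested. The 0 called lower became 1 with at least 5 FPKM, 1 after rescaling, 18 after median centring and 3 after quantile normalization. The role lists moved by over 1.5 times only where named above, and under median centring also for kinases and phosphatases (2), lipid metabolism (1) and mitochondrial metabolism (0). The window and background alternatives for promoters were not run, since too few members had an entry. With 2 pairs, the spread of any gene rests on 1 residual degree of freedom, and the CT26 marker lists speak only for the markers they hold.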
